A study of Mus musculus with 23 samples.

Results

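The FGF and Activin (FA) response of mouse embryonic stem cells labelled ERF knockout was compared between cells that kept and cells that lost their remaining RAS gene. The measure was the interaction of medium and RAS state: the log2 fold change from 2iL to FA with RAS deleted, minus the log2 fold change from 2iL to FA with RAS present. It used the 12 libraries labelled ERF knockout, of 23 libraries in the series, with 3 libraries in each of 4 groups. A positive interaction says that FA cells relative to 2iL cells stood higher without RAS, and a negative one that they stood lower.

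All 4 groups shared the Raslox/lox background, which is N-Ras-/- and H-Ras-/-, carries floxed alleles of the remaining RAS gene and expresses Ubiq-CreERT2, a tamoxifen-inducible Cre recombinase. All 4 also carried the ERF KO label. The RAS-present groups received no 4-hydroxytamoxifen, whereas the RAS-deleted groups received it for 6 days, so loss of RAS and exposure to the drug cannot be told apart. 2iL is a serum-free N2B27 medium with the MEK inhibitor PD0325901, the GSK3 inhibitor CHIR99021 and the cytokine LIF, in which stem cells stay naive. FA cells spent 48 hours on fibronectin in N2B27 with 1% KOSR, 12 ng/ml FGF2 and 20 ng/ml Activin A, which induces epiblast-like cells. The labels do not say whether replicates came from separate cultures or clones, so p-values measure the spread between these samples.

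FGF binds receptor tyrosine kinases that switch RAS to its GTP-bound state, and RAS in turn starts the RAF, MEK and ERK kinase cascade. ERF, an ETS-domain protein, holds its target genes down until active ERK phosphorylates it and sends it out of the nucleus. In embryonic stem cells this pathway is known for driving the exit from the naive state, and its own inhibitors, such as Sprouty and DUSP proteins, are among the genes that it turns on.

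Total counts in the 12 libraries ran from 16221640 to 29082007. The noncoding RNA Gm26917 took 19.6% to 27.9% of them, least in the RAS-deleted FA libraries (19.6% to 21.4%) and most in the RAS-deleted 2iL libraries (27.1% to 27.9%). With Gm26917 left out before normalization 950 genes were called, against 936 with it. Erf RNA checked no label, since it stayed abundant in every library labelled ERF knockout: 129, 123 and 96.1 CPM (counts per 1000000 counts, scaled for composition) in RAS-present 2iL, 50.7, 64.8 and 56.9 in RAS-present FA, 172, 153 and 130 in RAS-deleted 2iL, and 49.3, 64.5 and 67.9 in RAS-deleted FA. Its mean was 116 CPM in RAS-present 2iL under the knockout label and 77.6 CPM in the corresponding ERF wild type group. The extent of the ERF lesion is not given in the labels, and the ERF state below is that of the label. Hras read between 12 and 25.9 CPM and Nras between 5.32 and 52.3 CPM in the 12 libraries, although both are labelled -/- throughout. Nras in 2iL was 43.6, 7.74 and 30.7 CPM with RAS and 52.3, 5.32 and 34.8 CPM without it, lowest in replicate 2 of both groups. The general pluripotency markers summed to 1130 to 1500 CPM and none of them was at 0.

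Of 20372 genes tested, 936 (4.59%) had an interaction that passed edgeR's quasi-likelihood test (Benjamini-Hochberg adjusted p under 0.05, size at least 2-fold). These were 466 positive (2.29%) and 470 negative (2.31%) interactions. By adjusted p alone 2669 genes passed. The 4 libraries numbered 1, 1 per group, had slightly raised chromosome 11 genes (median log2 deviation 0.0405 to 0.109). Without them 365 genes were called, 215 positive and 150 negative. Of 73 called genes checked, which leave out those named only from lists chosen after values were seen, 38 lost the call. That comparison holds 2 libraries per group, and no other same-numbered set was left out. Whether fewer libraries or these libraries themselves lowered the count was not tested. In the main fit, 4.66% of the tested chromosome 11 genes were called. Leaving out RAS-present FA replicate 2 alone gave 306 negative calls, and without a filter on low counts 576 were positive and 742 negative. The RAS effect was called in FA with the same sign as the interaction for 570 of the 936, was called in 2iL for 21, and was called in neither medium for 346. It was larger in FA than in 2iL for 82.7% of the 936, against 64.1% of all genes tested. Across all genes tested, RAS state was called for 1401 genes (6.88%) in FA, 2.81% higher and 4.06% lower without RAS, and for 43 (0.211%) in 2iL, 0.0687% higher and 0.142% lower. The first principal component separated the media (82.4% of the variance), and the second (9.06%) separated the RAS states in FA, with RAS-present FA libraries between -21.4 and -17.2 and RAS-deleted FA libraries between 12.9 and 18.6. The 2iL libraries of both RAS states sat between -0.163 and 3.58 on that axis.

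Each direction held several shapes of response. Among the 466 positive genes, 201 rose in FA only by the test with RAS deleted, 112 rose in both RAS states, 71 fell with RAS present and were not called with RAS deleted, 25 fell in both and 10 fell with RAS present and rose with RAS deleted. The remaining 47 were called in neither state. Among the 470 negative genes, 196 were not called with RAS present and fell with RAS deleted, 117 rose with RAS present and were not called with RAS deleted, 56 fell in both, 17 rose in both and 9 rose with RAS present and fell with RAS deleted. The other 75 were called in neither. Over all genes tested, FA raised 12.3% and lowered 7.46% with RAS, and raised 14.5% and lowered 10.4% without it. The FA responses of single libraries did not overlap between the RAS states for 935 of the 936 called genes and for 53.8% of all genes tested.

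**Figure D1:**
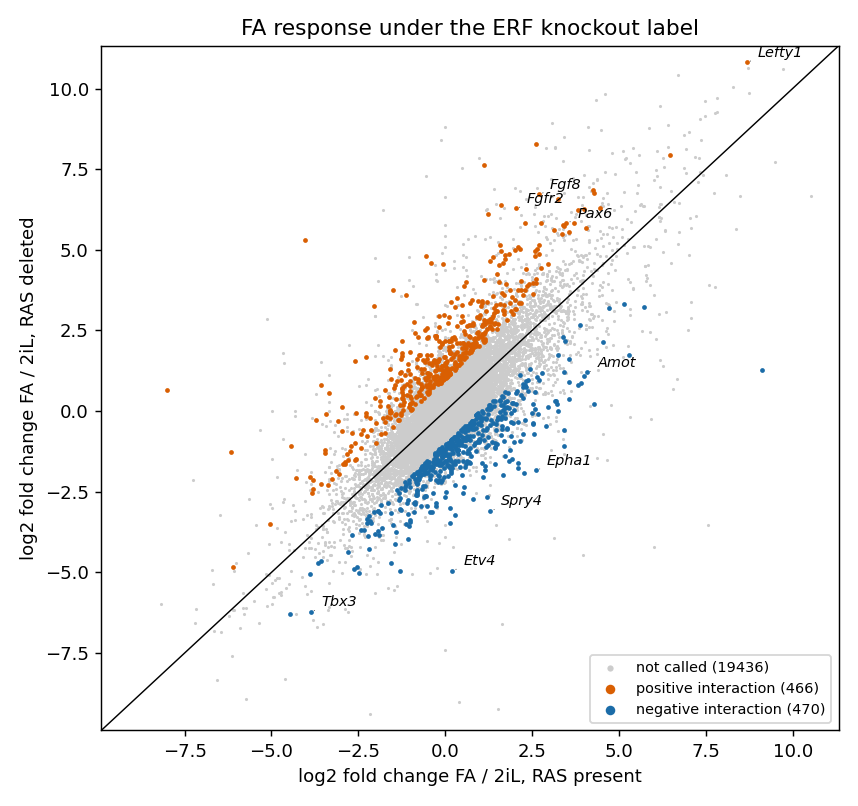
Log2 fold change from 2iL to FA for each of 20372 genes, with RAS present (horizontal axis) and RAS deleted (vertical axis), in the libraries labelled ERF knockout. Each point is 1 gene, orange for the 466 positive and blue for the 470 negative interactions, and the line marks equal responses; Etv4 and Spry4 lie far below the line, Fgfr2 and Fgf8 far above it.

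Many genes that report ERK activity had negative interactions. Of 26 tested genes in the ERK response list, 10 were called negative and 0 positive, where 2.31% of all genes were called negative. Their median interaction was -1 on the log2 scale, against 0.00446 over all genes tested. The 10 were Etv4, Spry4, Dusp4, Egr1, Spred3, Dusp6, Phlda1, Junb, Fos and Jun. Of these, 6 kept the call without the 4 libraries numbered 1: Etv4, Spry4, Dusp4, Spred3, Dusp6 and Phlda1. Over the list, the median log2 fold change from 2iL to FA was 0.919 where RAS was kept and 0.128 where it was deleted.

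Etv4 (chr11:101769747-101785310, RefSeq GRCm38.p6) encodes an ETS-family activator that FGF signalling induces. It measured 20.9, 19.1 and 22.2 CPM in RAS-present 2iL and 24.2, 21.7 and 26 CPM in RAS-present FA. With RAS deleted it measured 18.2, 14.2 and 20.4 CPM in 2iL and 0.515, 0.408 and 0.787 CPM in FA. All 3 RAS-deleted FA libraries thus lay far below the other 9, which covered 14.2 to 26 CPM. The interaction was -5.15 ± 0.33 (log2, SE; edgeR adjusted p = 5.41e-09), the most negative among the genes named by rule.

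Among the feedback inhibitors, Spry4, which restrains receptor signalling upstream of ERK, measured 5.05, 5.14 and 6.1 CPM in RAS-present 2iL, 14.8, 9.99 and 15.4 CPM in RAS-present FA, 5.01, 4.7 and 6.47 CPM in RAS-deleted 2iL and 0.644, 0.694 and 0.539 CPM in RAS-deleted FA. FA raised Spry4 with RAS and lowered it without RAS, with an interaction of -4.39 ± 0.34 (edgeR adjusted p = 1.84e-08). Dusp6 (chr10:99263231-99267489), a cytoplasmic phosphatase that removes phosphate from ERK, went from 9.51, 11.5 and 9.93 CPM in 2iL to 118, 99.9 and 111 CPM in FA with RAS present. With RAS deleted it went from 9.28, 10.5 and 10.6 CPM to 22.5, 22.7 and 25.3 CPM. Dusp6 therefore still rose in FA without RAS, to a lower level, and the interaction was -2.19 ± 0.31 (edgeR adjusted p = 0.000189).

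Dusp4, a nuclear phosphatase of the same family, rose from 7.59, 11.3 and 11.7 CPM to 57.5, 62.7 and 54.5 CPM with RAS present. It measured 5.69, 8.9 and 6.74 CPM in 2iL and 5.25, 5.92 and 5.26 CPM in FA with RAS deleted. The FA level without RAS overlapped its 2iL level, and the interaction was -2.90 ± 0.52 (edgeR adjusted p = 0.00193). Spred3, a Sprouty-related inhibitor, rose from 2.5, 2.17 and 2.63 CPM to 11.5, 8.73 and 16 CPM with RAS, and read 3.3, 2.24 and 2.56 CPM in 2iL and 2.32, 2.16 and 2.28 CPM in FA without it (interaction -2.57 ± 0.30, edgeR adjusted p = 1.01e-05). Dusp4 and Spred3 had no FA rise without RAS that exceeded the spread of their libraries.

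The immediate-early genes split. Egr1, a zinc finger factor induced within minutes by ERK, was 0.673, 0.92 and 0.946 CPM in RAS-present 2iL and 9.7, 6.08 and 7.33 CPM in RAS-present FA, against 0.74, 0.728 and 0.337 CPM and 0.837, 1.02 and 0.414 CPM with RAS deleted (interaction -2.87 ± 0.71, edgeR adjusted p = 0.011). The AP-1 subunits Fos (-1.03 ± 0.32), Jun (-1.01 ± 0.27) and Junb (-1.09 ± 0.23) lay just past the 2-fold limit. Fos and Jun each lost the call when any of several single libraries was left out, Junb without RAS-deleted FA replicate 1, and all 3, like Egr1, without the 4 libraries numbered 1. Phlda1 (-1.56 ± 0.26) was the other called member.

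The other 16 members of the ERK list missed the call. Of these, 5 had a positive fitted value. Ccnd1, which encodes cyclin D1, had the largest (1.23 ± 0.44, edgeR adjusted p = 0.0773), followed by the AP-1 gene Fosl2 (0.50 ± 0.33, edgeR adjusted p = 0.347). Dusp5, a nuclear phosphatase of ERK, read 9.46, 9.3 and 8.89 CPM with RAS and 14.5, 15.4 and 12.6 CPM without it in FA, from 1.89 to 2.87 CPM and 2.16 to 3.24 CPM in 2iL (0.43 ± 0.26, edgeR adjusted p = 0.29). The Dusp5 libraries in FA thus did not overlap between RAS states. Fosb (0.13 ± 0.79) and Il17rd were the other members with a positive value. Spry2 had an interaction of -0.997 ± 0.190, just under the 2-fold limit (edgeR adjusted p = 0.00173), from 68.2, 74 and 61.1 CPM in 2iL to 41.4, 34.7 and 42 CPM in FA with RAS and from 78.6, 93.9 and 85.5 CPM to 25.1, 24 and 26.1 CPM without it. Etv5, an ETS factor close to Etv4, read 218, 239 and 221 CPM in FA with RAS and 168, 173 and 195 CPM without it, with an interaction of -0.30 ± 0.15 (edgeR adjusted p = 0.197). Il17rd, a membrane inhibitor of FGF signalling, reached 142, 120 and 138 CPM in FA with RAS and 149, 162 and 146 CPM without it (interaction 0.06 ± 0.13, edgeR adjusted p = 0.809). Spred1 had an interaction of -0.70 ± 0.12 (edgeR adjusted p = 0.000608), under 2-fold. Etv4 and Etv5 thus differed widely in their fitted interactions, though the difference between these 2 genes was not tested.

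**Figure D2:**
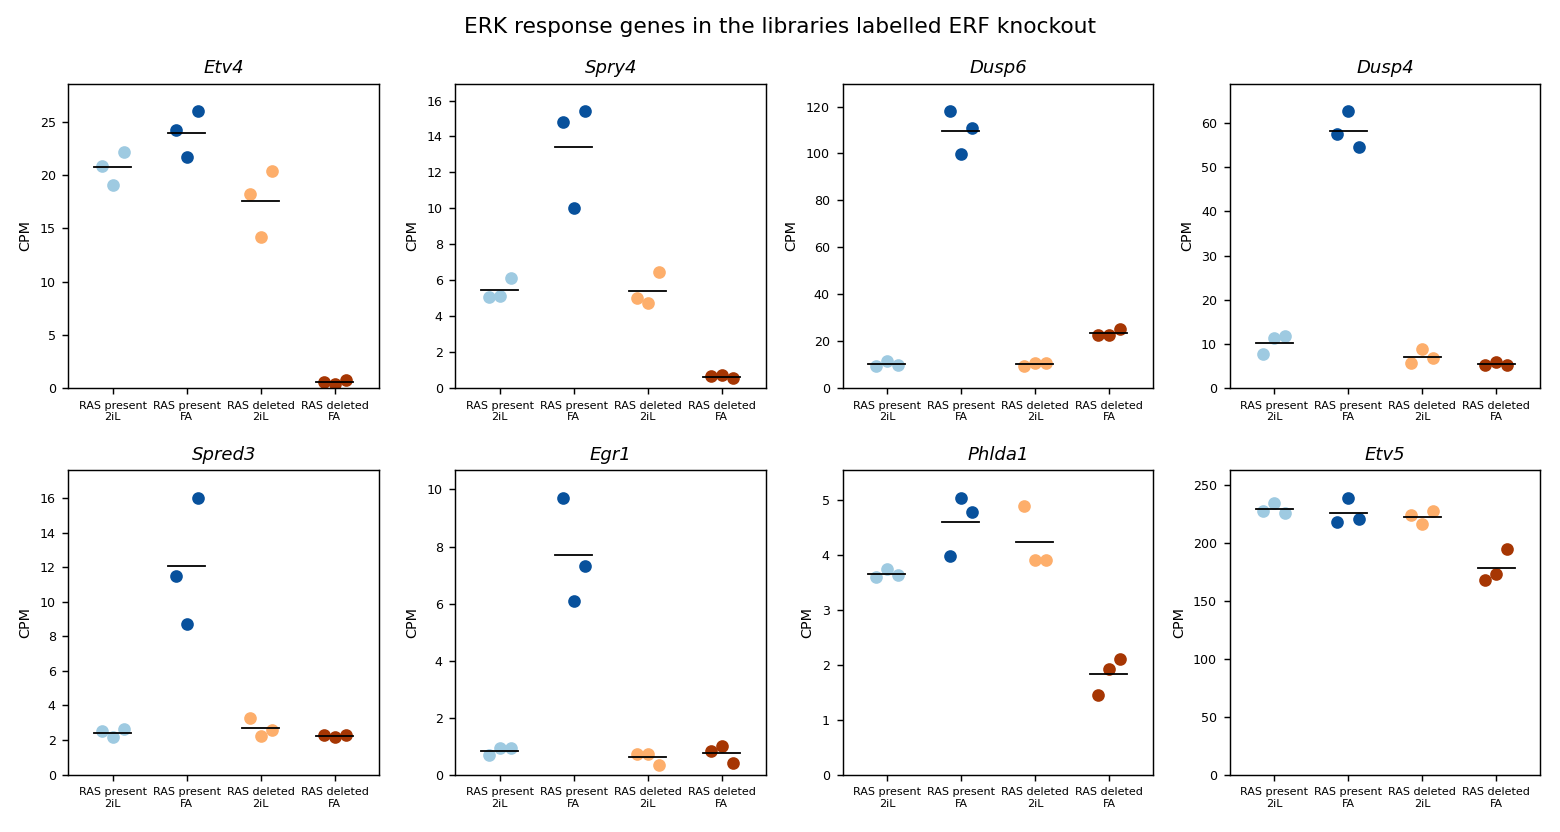
CPM of 8 ERK response genes in each of the 12 libraries labelled ERF knockout, by RAS state and medium; points are libraries, lines are group means, and each panel has its own axis from 0. Etv4 lies between 0.408 and 0.787 CPM in the RAS-deleted FA libraries and between 14.2 and 26 CPM elsewhere, whereas Etv5 stays at 168 CPM or above in all 12.

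Receptors and ligands of the FGF family held both large positive interactions and 1 negative one: 2 of 18 tested members were called positive (all genes 2.29%), 1 negative (2.31%) and 15 were not called, with a median of 0.41. Fgfr2 (chr7:130162451-130266808), an FGF receptor, rose from 1.25, 2.44 and 2.79 CPM to 7.99, 8.86 and 9.52 CPM with RAS. Without RAS it rose from 0.512, 0.896 and 0.607 CPM to 50.1, 57.4 and 51.9 CPM, above every other library. Its interaction was 4.25 ± 0.56 (edgeR adjusted p = 0.000129). The ligand gene Fgf8 rose from 0.529, 0.271 and 0.526 CPM to 3.75, 1.69 and 3.35 CPM with RAS and from 0.285, 0.504 and 0.135 CPM to 37.6, 37.5 and 27.3 CPM without it (4.02 ± 0.99, edgeR adjusted p = 0.013). The call of Fgf8 ended when RAS-present 2iL replicate 1 or 3 was left out, while the fitted value stayed between 3.70 and 4.56 in all alternatives. Fgfr4 was the negative member (-1.18 ± 0.37, edgeR adjusted p = 0.0379), a call that 8 of the 12 single omissions ended. Without the 4 libraries numbered 1, Fgfr2 alone of the 3 kept the call.

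Within the pathway itself, 1 of 26 kinases and adaptors was called, as a positive interaction (all genes 2.29%), and their median interaction was 0.03. Rasgrp3, an exchange factor that loads RAS proteins with GTP, measured 1.1, 0.782 and 0.917 CPM in RAS-present FA and 12.9, 12.9 and 12.4 CPM in RAS-deleted FA, with all 2iL libraries at or below 0.455 CPM. The interaction was 3.55 ± 0.67 (edgeR adjusted p = 0.0014).

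Other genes with the most positive interactions came from several families. Prmt8, an arginine methyltransferase, had a fall with RAS (2.88, 2.6 and 2.26 CPM to 1.06, 0.738 and 1.43 CPM) and a rise without it (1.02, 1.85 and 1.21 CPM to 5.76, 6.82 and 6.13 CPM), with an interaction of 3.43 ± 0.30. Dusp27 had 9.62, 11.1 and 9.05 CPM in RAS-present FA and 60.2, 57.7 and 59.3 CPM in RAS-deleted FA, against 8.57 to 16.2 CPM in all 2iL libraries (3.11 ± 0.30). Both genes stood highest in the 3 RAS-deleted FA libraries.

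Ror1, a receptor for Wnt5a, was near the counting floor in 2iL and read 0.897, 1.09 and 0.956 CPM in RAS-present FA and 7.79, 8.86 and 7.25 CPM in RAS-deleted FA. Its fitted interaction of 5.67 is no bound, because RAS-deleted 2iL libraries held 3 counts or fewer, and its call ended without RAS-present 2iL replicate 3. Stra6l, a retinol-transporter-like gene, was likewise near the floor in RAS-deleted 2iL. It read 1.39, 1.26 and 1.83 CPM in RAS-present FA and 7.89, 8.69 and 7.83 CPM in RAS-deleted FA, and 8 of the 12 single omissions ended its call. The other positive genes named by rule were Clic5 (3.34 ± 0.70), Capn3 (3.12 ± 0.51), Prr5l (3.11 ± 0.84) and Zeb2 (3.08 ± 0.79). The call of Prr5l ended without RAS-present 2iL replicate 3, and that of Zeb2 without that library or without RAS-deleted 2iL replicate 2. Without the 4 libraries numbered 1, Ror1, Stra6l, Prr5l and Zeb2 lost the call.

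Several genes of the neural lineage rose more in FA without RAS. Of 9 tested early neural genes, 4 were called positive (all genes 2.29%) and 0 negative, with a median of 1.02. Pax6, a transcription factor of neural progenitors and eye, went from 0.769, 0.271 and 0.21 CPM to 4.57, 4.95 and 5.06 CPM with RAS, and from 0.683, 0.392 and 0.472 CPM to 30.4, 30 and 28.8 CPM without it (2.34 ± 0.62, edgeR adjusted p = 0.0163). The call of Pax6 ended without RAS-present 2iL replicate 1. Tubb3, a neuronal beta tubulin, measured 6.2, 4.3 and 7.01 CPM in RAS-present FA and 24.5, 22.7 and 23 CPM in RAS-deleted FA, from 3.89, 3.25 and 3.57 CPM and 1.59, 2.52 and 2.76 CPM in 2iL (2.65 ± 0.32, edgeR adjusted p = 2.15e-05).

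Sox1, an early marker of neural ectoderm, read 34.7, 34.6 and 43.3 CPM with RAS and 67.4, 71.2 and 68.4 CPM without RAS in FA, and 13.7 to 19.7 CPM in 2iL (1.02 ± 0.20). Zfp521 completed the 4 (1.16 ± 0.36). Calls of Sox1 and Zfp521 lay close to the 2-fold limit, and several single omissions ended each. Without the 4 libraries numbered 1, Sox1 and Tubb3 kept the call and Pax6 and Zfp521 lost it. The list summed to 66.6 to 82.7 CPM in RAS-present FA, 151 to 159 CPM in RAS-deleted FA and 38.2 to 45.8 CPM in 2iL. In bulk RNA, more cells of a type and more RNA per cell cannot be told apart.

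Of 16 tested mesoderm and endoderm regulators, 3 were called negative (all genes 2.31%), 0 positive and 13 not at all, with a median of -0.72. Fitted values were negative for 12 and positive for 4. The 11 members at the counting floor in none of the 4 groups had a median of -0.58. Gata6 and Mesp2 kept the call without the 4 libraries numbered 1 and Lhx1 lost it. Gata6, an endoderm factor, read 17.9, 20.4 and 13.5 CPM in RAS-present FA and 1.9, 2.33 and 2.94 CPM in RAS-deleted FA, against 3.89, 5.68 and 7.62 CPM and 4.21, 3.92 and 3.71 CPM in 2iL (-2.33 ± 0.42, edgeR adjusted p = 0.00114). Mesp2, a segmentation factor of paraxial mesoderm, read 2.61, 2.61 and 1.75 CPM with RAS and 0.483, 0.367 and 0.746 CPM without RAS in FA (-2.66 ± 0.48). Lhx1 read 2.98, 2.82 and 3.63 CPM in RAS-present FA and 0.161, 0.286 and 0.166 CPM in RAS-deleted FA, and stood at the counting floor in both 2iL groups, so its fitted interaction has no usable size.

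Primitive and visceral endoderm genes had 2 negative calls of 15 (all genes 2.31%), Gata6 and Hnf4a (-1.61 ± 0.43), and a median of -0.83. The Hnf4a call ended without RAS-deleted FA replicate 1 and without the 4 libraries numbered 1, under which Gata6 kept its call. Markers of this type summed to 1240 to 2520 CPM in RAS-present 2iL, 1270 to 1690 CPM in RAS-present FA, 998 to 1550 CPM in RAS-deleted 2iL and 580 to 1000 CPM in RAS-deleted FA. RAS-deleted FA libraries thus had the lowest sums, touching the RAS-deleted 2iL range only at its lower end, and the part of such cells in the other interactions was not tested. Two-cell-like genes, a Zscan4-type program of rare stem cells, had 0 calls of 12, though all 12 fitted values were negative with a median of -1.19. Their sums of 88.7 to 387 CPM overlapped between all 4 groups. Of 8 tested fibroblast markers 1 was positive (Col1a2, all genes 2.29%) and 2 negative (Pdgfrb and Loxl1), and all 3 lost the call without the 4 libraries numbered 1. These markers summed to 22.2 to 49.3 CPM, with Lum at 0 in all 12 libraries, and blood and endothelial markers to 28.4 to 164 CPM, with Hbb-bt at 0.

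**Figure D3:**
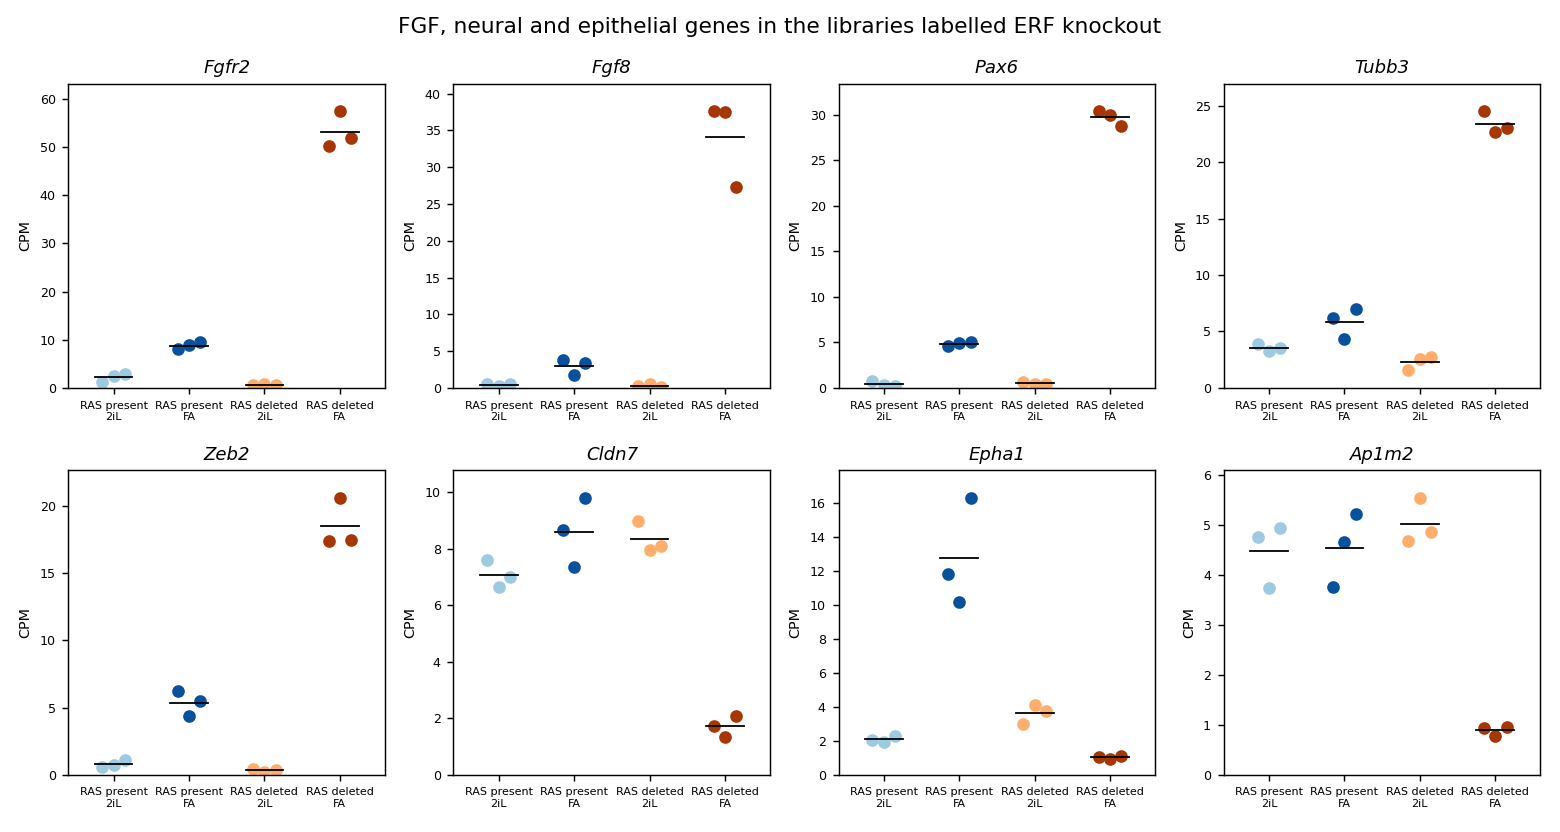
CPM of FGF, neural and epithelial genes in each of the 12 libraries labelled ERF knockout; points are libraries, lines are group means, and each panel has its own axis from 0. Fgfr2, Fgf8, Pax6, Tubb3 and Zeb2 stand highest in the 3 RAS-deleted FA libraries, whereas Cldn7, Epha1 and Ap1m2 stand lowest there.

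In the list of cadherin switch and EMT genes, 2 of 16 were positive (all genes 2.29%), 2 negative (2.31%) and 12 not called, with a median of -0.33. Both positive members were the ZEB repressors, which bind E-box sequences and silence epithelial genes. Zeb2 rose from 0.577, 0.704 and 1.1 CPM to 6.24, 4.39 and 5.46 CPM with RAS and from 0.398, 0.224 and 0.337 CPM to 17.4, 20.6 and 17.5 CPM without it. Zeb1 read 21.8, 20.4 and 20.6 CPM with RAS and 36.4, 37.1 and 42.6 CPM without RAS in FA, from 28 to 29.1 CPM and 20.8 to 23.5 CPM in 2iL (1.26 ± 0.15, edgeR adjusted p = 1.58e-05).

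The negative members were the tight junction claudins Cldn7 (-2.56 ± 0.54) and Cldn3 (-1.46 ± 0.31). Without the 4 libraries numbered 1, Zeb1 and Cldn3 kept the call and Zeb2 and Cldn7 lost it. The fitted values of Zeb2 (2.77 to 3.64) and Cldn7 (-2.71 to -2.42) kept their sign in all alternatives. Cldn7 measured 8.68, 7.34 and 9.8 CPM with RAS and 1.74, 1.35 and 2.07 CPM without RAS in FA, against 6.66 to 8.99 CPM in 2iL. Cdh1, the epithelial cadherin, had 229, 223 and 252 CPM with RAS and 172, 167 and 173 CPM without it in FA, with an interaction of -0.85 ± 0.31 that missed the threshold (edgeR adjusted p = 0.0783). Cdh2, the neural cadherin, missed it too (1.05 ± 0.60, edgeR adjusted p = 0.269).

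A list of 30 epithelial polarity and junction genes was chosen after values were seen, so its counts support nothing: 16 of 29 tested were negative (all genes 2.31%) and 0 positive, with a median of -1.30. Ap1m2, an epithelial sorting adaptor, read 3.75, 4.65 and 5.22 CPM with RAS and 0.933, 0.775 and 0.953 CPM without RAS in FA (-2.51 ± 0.35). The apical polarity gene Crb3 read 3.06, 3.34 and 4.82 CPM with RAS and 1.26, 0.735 and 0.995 CPM without it in FA (-2.29 ± 0.47). Tmem30b, a lipid flippase subunit, read 6.81, 6.3 and 7.53 CPM with RAS and 1.96, 1.47 and 2.07 CPM without it in FA (-2.24 ± 0.40). Epha1 (chr6:42358487-42373314), an ephrin receptor of epithelia that this list does not hold, was second most negative by rule. It read 11.8, 10.2 and 16.3 CPM with RAS and 1.06, 0.898 and 1.08 CPM without it in FA, from 1.95 to 2.26 CPM and 2.96 to 4.09 CPM in 2iL (-4.44 ± 0.27, edgeR adjusted p = 1.21e-09). In these 4 genes the RAS-deleted FA libraries were below all others.

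The sequences before the starts of these 4 genes are shown because they hold the letters that ZEB and Snail factors are known to bind, CACCTG or its reverse complement CAGGTG, in capitals. They were chosen for holding a match. Each is the stretch of up to 250 bases before the annotated start, on the gene's strand and outside the gene's own span, from RefSeq GRCm38.p6: Tmem30b at chr12:73546396-73546645 (minus strand), Crb3 at chr17:57061951-57062200 (plus), Ap1m2 at chr9:21312350-21312583 (minus) and Epha1 at chr6:42373315-42373518 (minus).
Tmem30b: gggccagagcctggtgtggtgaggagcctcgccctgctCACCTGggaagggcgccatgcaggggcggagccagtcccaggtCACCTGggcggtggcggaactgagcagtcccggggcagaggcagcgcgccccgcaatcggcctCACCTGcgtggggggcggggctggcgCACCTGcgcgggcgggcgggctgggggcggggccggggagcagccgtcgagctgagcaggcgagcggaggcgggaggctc
Crb3: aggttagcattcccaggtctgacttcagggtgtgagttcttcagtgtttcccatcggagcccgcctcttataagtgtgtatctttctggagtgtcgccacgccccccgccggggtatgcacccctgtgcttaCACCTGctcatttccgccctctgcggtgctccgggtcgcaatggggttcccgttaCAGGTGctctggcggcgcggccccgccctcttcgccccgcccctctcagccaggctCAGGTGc
Ap1m2: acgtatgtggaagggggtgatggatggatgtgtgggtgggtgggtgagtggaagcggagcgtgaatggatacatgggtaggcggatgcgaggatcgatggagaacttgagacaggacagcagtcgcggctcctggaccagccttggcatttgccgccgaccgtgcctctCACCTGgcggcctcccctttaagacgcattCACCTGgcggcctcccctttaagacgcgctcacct
Epha1: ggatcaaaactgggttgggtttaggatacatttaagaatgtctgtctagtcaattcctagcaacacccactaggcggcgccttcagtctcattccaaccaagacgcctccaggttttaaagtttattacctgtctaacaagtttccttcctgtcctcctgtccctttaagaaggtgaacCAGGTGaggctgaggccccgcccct
Tmem30b has 4 matches, Crb3 3, Ap1m2 2 and Epha1 1 in the shown stretch.

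Across the 12852 tested genes with a promoter entry, 19.4% held CACCTG on either strand in the 250 bases before a start, as did 29.4% of the 313 negative and 19.2% of the 286 positive genes with an entry. In the epithelial list 9 of 18 tested genes with an entry held it (50.0%), as did 5 of the 11 called negative (45.5%). A second motif, the ETS site letters CCGGAAG on either strand, which cannot overlap with the E-box letters, was in 13.6% of tested genes, 5.11% of the negative and 6.29% of the positive. Both motifs were searched after the genes were known and the shares were not tested. A match describes letters and is no binding site, and whether ZEB or Snail factors act on these genes was not tested.

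Naive and formative genes, which mark the 2 ends of the exit from 2iL, had called interactions in 1 formative and 2 naive genes. Of 17 tested naive genes 1 was positive (all genes 2.29%) and 1 negative (2.31%), with a median of -0.17, and of 16 formative and primed genes 1 was positive and 0 negative, with a median of 0.36. Klf4, a naive transcription factor, fell from 273, 305 and 265 CPM to 5.5, 5.6 and 4.9 CPM with RAS and from 314, 302 and 335 CPM to 4.89, 3.27 and 5.51 CPM without it (-0.40 ± 0.19, edgeR adjusted p = 0.178). Nanog fell from 379, 379 and 310 CPM to 95.9, 129 and 94.8 CPM and from 400, 378 and 352 CPM to 170, 175 and 171 CPM (0.61 ± 0.21, edgeR adjusted p = 0.0576). The naive list summed to 482 to 578 CPM in RAS-present FA and 520 to 564 CPM in RAS-deleted FA, from 3730 to 3940 CPM and 4050 to 4450 CPM in 2iL.

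The 2 called naive genes fell in FA in both RAS states, and their interactions had opposite signs. Tbx3 fell from 369, 432 and 404 CPM to 23.9, 37.2 and 21.4 CPM with RAS and from 439, 448 and 497 CPM to 7.27, 5.84 and 5.3 CPM without it (-2.35 ± 0.37, edgeR adjusted p = 0.000704). Prdm14, a repressor that guards naive pluripotency, fell from 15.5, 14.8 and 11.1 CPM to 0.448, 0.521 and 0.279 CPM with RAS and from 14.8, 11.1 and 11.9 CPM to 1.19, 0.612 and 1.53 CPM without it (1.55 ± 0.44, edgeR adjusted p = 0.023). Leaving out RAS-present FA replicate 3, or RAS-deleted FA replicate 1 or 3, ended the Prdm14 call, as did leaving out the 4 libraries numbered 1, under which Tbx3 kept its call. Foxd3 was the called formative gene (1.46 ± 0.26).

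The Nodal and Activin list, read out by the Activin in FA, had 2 positive (all genes 2.29%) and 1 negative (2.31%) of 16. Lefty1, a Nodal antagonist and Activin target, rose from 0.865, 1.14 and 0.788 CPM to 438, 367 and 344 CPM with RAS and from 0.569, 0.504 and 0.404 CPM to 926, 1010 and 795 CPM without it (2.14 ± 0.43, edgeR adjusted p = 0.00248). Lefty2 read 155, 118 and 99.8 CPM with RAS and 253, 238 and 218 CPM without it in FA (1.47 ± 0.47), a call that 8 single omissions ended. The coreceptor gene Tdgf1 read 286, 226 and 294 CPM with RAS and 155, 134 and 146 CPM without it in FA (-1.24 ± 0.18). Among 15 Wnt targets, beside the same shares of all genes, 1 was positive (Notum, 1.96 ± 0.40) and 3 negative (Axin2, Cdx1 and Dkk1). Axin2 and Cdx1 lost their calls under several single omissions, and all 4 lost them without the 4 libraries numbered 1.

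Germline genes that DNA methylation silences had 4 negative of 12 (all genes 2.31%), Ddx4, Sycp3, Tex101 and Taf7l, with a median of -0.86, and Ddx4 alone kept the call without the 4 libraries numbered 1. Ddx4, a germ cell helicase, read 27, 29.8 and 26.4 CPM with RAS and 10.3, 10.9 and 12.3 CPM without it in FA, against 11.3 to 14.8 CPM in 2iL (-1.31 ± 0.24). LIF and STAT3 genes had 1 negative call of 12 (Bcl3, all genes 2.31%) and a median of -0.41, with all 12 fitted values negative. Targets of p53 had 1 negative call of 18 (Fas, all genes 2.31%) and a median of -0.50, with 16 fitted values negative and 2 positive. Cell cycle genes had 1 positive of 20 (Mycn, all genes 2.29%) and the integrated stress response 2 positive of 14 (Chac1 and Slc7a11). Of these, Bcl3 and Slc7a11 lost the call without the 4 libraries numbered 1. General pluripotency genes, ETS factors and cholesterol and fatty acid synthesis genes had 0 calls among 8, 15 and 19 tested. Mycn, a proliferation factor of the MYC family, read 26.1, 27.7 and 26.7 CPM with RAS and 90.6, 93.9 and 90.4 CPM without it in FA (1.92 ± 0.16, edgeR adjusted p = 4.88e-08).

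**Figure D4:**
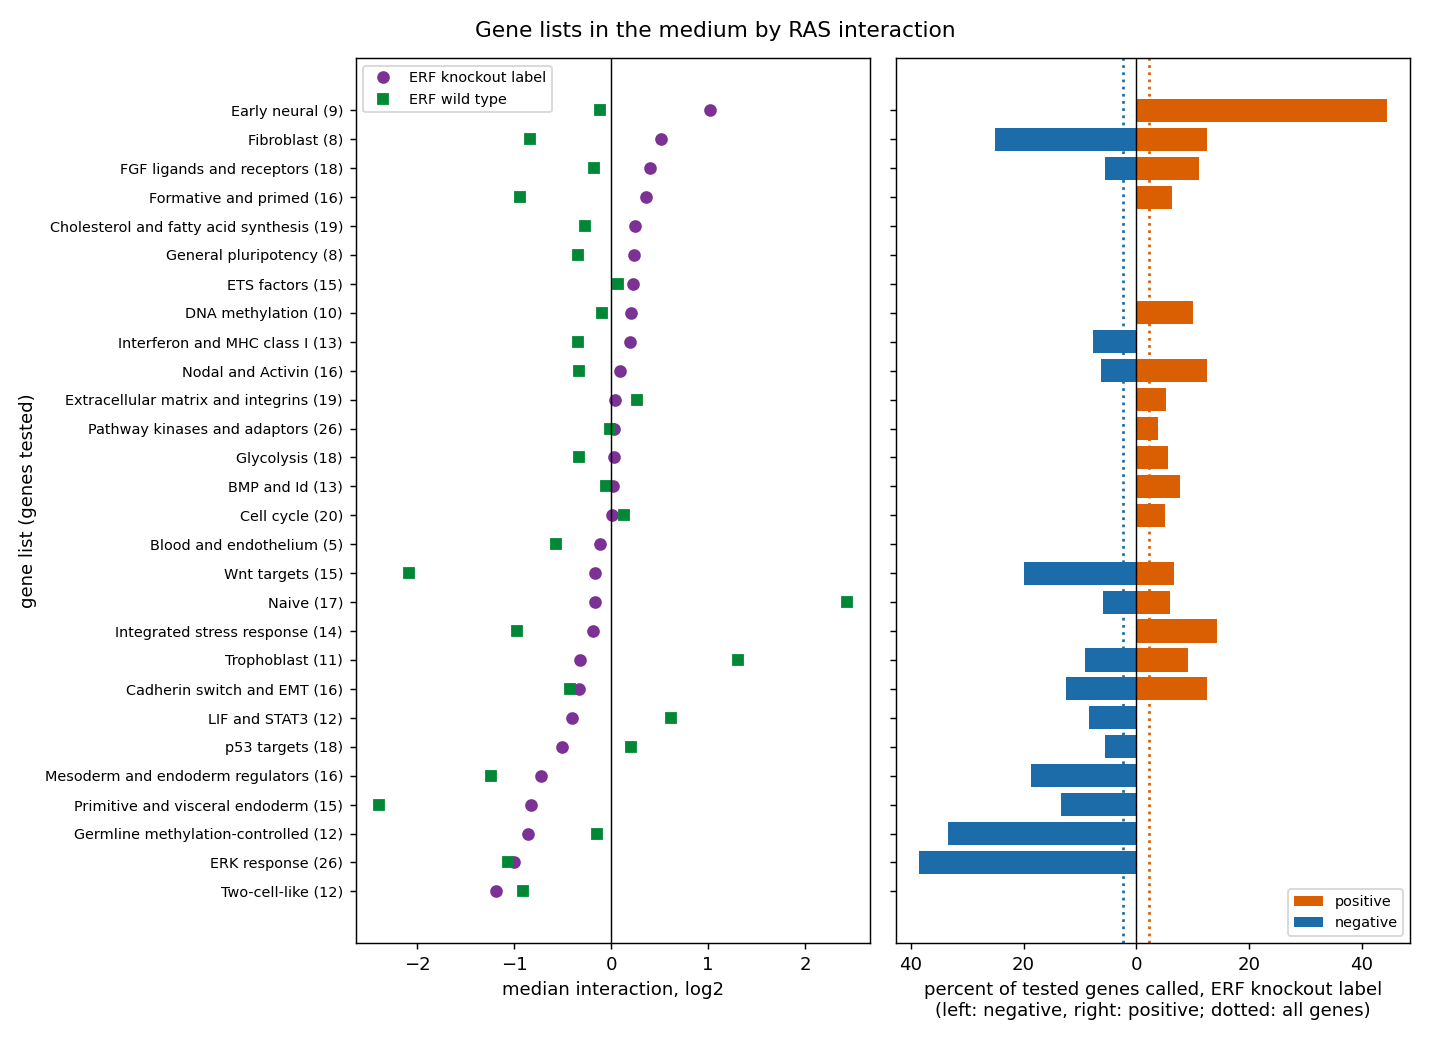
Gene lists ordered by their median interaction in the libraries labelled ERF knockout. Left, median interaction (log2) under the knockout label (circles) and in ERF wild type (squares); right, percent of tested list members called positive or negative under the knockout label, with dotted lines at 2.29% and 2.31%, the shares of all genes. Among the 28 lists plotted, ERK response genes have the largest share of negative calls and early neural genes the largest share of positive calls.

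Further genes with the most negative interactions by rule followed. Nt5e, an ecto-nucleotidase, read 5.79, 5.39 and 4.54 CPM in RAS-present FA and 1.48, 1.22 and 1.04 CPM in RAS-deleted FA, from 2.17 to 2.31 CPM and 5.99 to 11.1 CPM in 2iL, so RAS state also differed in 2iL (-3.88 ± 0.32, edgeR adjusted p = 5.04e-08). Amot, a regulator of the Hippo pathway, rose from 4.71, 4.87 and 5.15 CPM to 89.6, 83.7 and 74.5 CPM with RAS and from 3.13, 4.31 and 2.76 CPM to 9.4, 8.2 and 5.88 CPM without it (-2.87 ± 0.38). Ctsc, a lysosomal protease, fell to 17.7, 17.9 and 16.3 CPM with RAS and to 3.61, 3.63 and 4.06 CPM without it, from 45.6 to 48.5 CPM and 58.2 to 70.2 CPM in 2iL (-2.67 ± 0.25). The others were Fbp2 (-4.20 ± 0.86), Atp12a (-3.54 ± 0.62), Duxf3 (-2.95 ± 0.57) and B4galnt2 (-2.69 ± 0.58), of which Fbp2 and B4galnt2 lost the call without the 4 libraries numbered 1.

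The same interaction in the 11 ERF wild type libraries, which share no library with the comparison above, called 2425 genes (11.9%), with 1345 positive (6.6%) and 1080 negative (5.3%). The 2 interactions shared 291 calls in the same direction, which is 31.1% of the ERF knockout calls and 12% of the ERF wild type calls, and 59 in opposite directions (6.3% and 2.43%). The difference between the 2 interactions passed for 1947 genes (9.56%), of which 867 (4.26%) stood higher and 1080 (5.3%) lower under the knockout label. The 4 ERF wild type libraries numbered 1 had raised chromosome 8 genes (median log2 deviation 0.14 to 0.219). Leaving them out leaves 1 library for RAS-present FA in ERF wild type, so no count of calls is given for that fit. Of the 936 calls made under the knockout label, 300 had a called difference. Thus for 636 of them the data did not show that the interaction differed with the ERF label.

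Among the lists, naive genes had the widest gap between the 2 medians. In ERF wild type 13 of 17 were positive (all genes 6.6%) and 1 negative (5.3%) with a median of 2.43, while under the knockout label the median was -0.17. The difference passed for 14 of the 17 (all genes 9.56%), 13 lower and 1 higher under the knockout label. Klf4 had an interaction of 3.50 ± 0.20 in ERF wild type, and the difference was -3.90 (edgeR adjusted p = 8.31e-09). Formative and primed genes had 7 negative of 16 in ERF wild type (all genes 5.3%) and 0 here, and the difference passed for 6, all higher under the knockout label (all genes 4.26%).

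The ERK list had a negative median in both settings, -1.06 in ERF wild type, and its members divided. Dusp4, Dusp6, Egr1, Spred3, Spry4 and Phlda1 were called negative in both, and none of these 6 had a called difference. Il17rd (-3.35 ± 0.15), Spry2 (-4.15 ± 0.22) and Spred1 (-3.10 ± 0.13) were called negative in ERF wild type but not here, and each difference passed (3.41, 3.15 and 2.40 higher here). Etv4 went the other way, with -2.64 ± 0.27 in ERF wild type and a difference of -2.51 (edgeR adjusted p = 0.000599). Fos, Jun and Junb differed by -2.21, -1.48 and -1.41, lower here, and each difference passed.

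**Figure D5:**
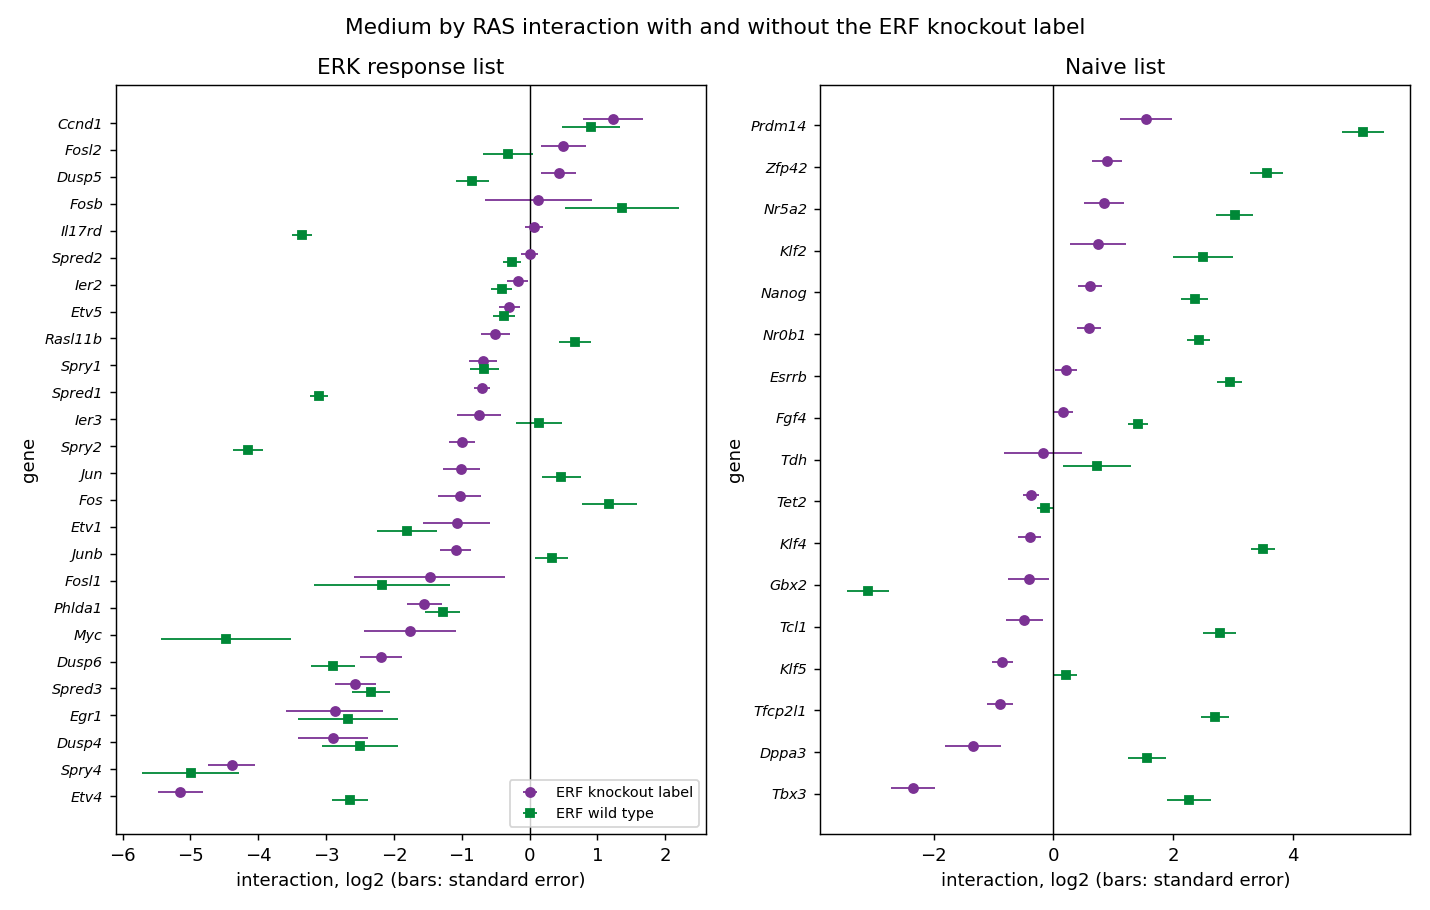
Medium by RAS interaction (log2, bars give the SE) of each tested ERK response gene (left) and naive gene (right), in the libraries labelled ERF knockout (circles) and in ERF wild type (squares). Naive genes such as Klf4 sit near 0 under the knockout label and well to the right in ERF wild type, while Dusp4 and Spry4 are negative in both and Il17rd in ERF wild type alone by the test of the difference.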

How the data were processed

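RNA was sequenced from 23 mouse embryonic stem cell samples. Per the labels' protocols, strand-specific libraries were made from RNA after rRNA depletion and read as 75 bp pairs. Per the submitters' processing notes, bcl2fastq 2.20.0, fastp 0.20.0, Salmon and the build mm10 were used, and the Salmon version is not given in the sources used here. The authors deposited estimated counts (expected counts) per gene symbol, and a table of all libraries whose 1232961 cells equal these counts rounded (0 differ); rounded counts were used here. Salmon shares reads between similar transcripts, so close paralogs such as Zscan4 genes are less certain.

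Genes were filtered with filterByExpr (20372 of 53607 kept), scaled by TMM and fitted in edgeR 4.0.16 (R 4.3.3) on all 23 libraries with 1 coefficient per group (robust quasi-likelihood). WT FA had 2 libraries and every other group 3. A call needs an adjusted p under 0.05 and a 2-fold interaction; SE is the size of the log2 value over the square root of F. CPM uses TMM-scaled libraries. A gene is at the floor where a group's libraries hold 3 counts or fewer. Genes were named from the lists and, by rule, as the 12 most positive and 12 most negative called known symbols with a mean of at least 5 CPM in 1 group and FA responses that do not overlap between RAS states. Members and lists were chosen with earlier results of these data known. Replicates differed beyond sampling noise (chi-square per degree of freedom 4.95 to 13.3 over 12 pairs).

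The script was tested on simulated data. Alternatives were RLE scaling, DESeq2 1.42.0, no filter, no 2-fold limit, no Gm26917, a fit of 12 libraries, a replicate block and each library left out, and, chosen after seeing the data, leaving out the 4 libraries numbered 1. A list median counted as moved when it shifted by more than the SD of an interaction made from 1 library per group; this spread was set after the narrower SD within a group had been tried. RefSeq GRCm38.p6 gave gene positions and promoters. The remaining RAS gene and 1 gene that the rule names are not reported here.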

Additional observations from a re-analysis of the deposited data

Results flagged for a closer look

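Each result here was picked out because the medium by RAS interaction differed between the libraries labelled ERF knockout and the ERF wild type libraries, by edgeR's quasi-likelihood test of the difference itself (adjusted p under 0.05 and at least 2-fold). In all, 1947 genes (9.56%) passed. Log2 differences below are the interaction under the knockout label minus that in ERF wild type.

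Among genes named by rule, the difference was 4.61 for Fgf8, 5.77 for Stra6l, 6.07 for Clic5, 1.31 for Dusp27, 2.49 for Amot and 8.32 for Ccdc194. It was -2.51 for Etv4, -9.04 for Ly6a, -5.03 for Dio3 and -4.82 for Jam2. Ccdc194 read 6.16, 6.17 and 7.65 CPM in RAS-present FA and 2.25, 2.65 and 1.99 CPM in RAS-deleted FA under the knockout label, and 0 to 0.404 CPM in 2iL, so its fitted size rests on few counts. Jam2, a junctional adhesion molecule, fell from 191, 212 and 200 CPM to 2.53, 4 and 2.31 CPM with RAS and from 207, 224 and 218 CPM to 9.11, 6.9 and 6.51 CPM without it, whereas its interaction in ERF wild type was 6.08 ± 0.28.

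Among ERK response genes the difference was 3.41 for Il17rd, 3.15 for Spry2, 2.40 for Spred1 and 1.27 for Dusp5, and it was -2.21 for Fos, -1.48 for Jun, -1.41 for Junb and -1.17 for Rasl11b. Fos had a positive call in ERF wild type (1.18 ± 0.40) and a negative one under the knockout label.

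Among naive genes the difference was -3.90 for Klf4, -1.06 for Klf5, -1.75 for Nanog, -2.74 for Esrrb, -3.59 for Tfcp2l1, -4.62 for Tbx3, -3.62 for Prdm14, -2.66 for Zfp42, -1.83 for Nr0b1, -2.91 for Dppa3, -3.27 for Tcl1, -2.18 for Nr5a2 and -1.25 for Fgf4. Gbx2 alone in that list stood higher, by 2.69.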

How the results depend on the processing

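RLE scaling (945 genes called), DESeq2 (951), no Gm26917 (950) and a fit of only the 12 libraries (1237) kept the count of interactions under the knockout label within 1.5 times 936. By adjusted p alone the counts were 2669 (1305 positive, 1364 negative), 4988 (2610 and 2378) in ERF wild type and 3362 (1561 and 1801) for the difference. Without a filter on low counts 742 were negative. Leaving out 1 library gave 650 to 1021 calls, with 306 to 528 negative, lowest without RAS-present FA replicate 2. Without all 4 knockout libraries numbered 1, whose chromosome 11 genes were slightly raised (median log2 deviation 0.0405 to 0.109), 365 were called (215 positive, 150 negative), with 8 libraries left in the comparison. The replicate block gave 1401 calls (630 positive, 771 negative). The labels give the numbers no meaning, so the block was not the main fit: 17 of 18 same-numbered pairs correlated above 0.1, the lowest at 0.02, and each of the 12 libraries correlated best with its own number, a hint from the data that numbers share more.

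The alternatives were read for 75 genes, those named by rule and the called members of lists not chosen after values were seen. Of these 75, 32 stayed on their side of the threshold in every alternative, 41 lost the call in at least 1, and 0 changed sign. Ly6a and Dio3, not called, gained a call in 4 each. Genes named only from lists chosen after values were seen, such as Gli1, Crb3 and Hoxa5, were not among the 75. Of 532 alternative list medians, 47 moved by more than the spread used, and 109 by more than the narrower SD within a group. Medians were -0.45 for mesoderm and endoderm regulators with DESeq2. With only the 12 libraries they were -0.457 for Wnt targets and 0.243 for blood and endothelium, and with the replicate block -0.455 and 0.237. Without the 4 libraries numbered 1 they were -0.568 for mesoderm and endoderm regulators, 1.15 for early neural, 0.108 for blood and endothelium, -0.146 for EMT and 0.295 for ETS factors. Leaving out 1 library gave -1.06 to -0.874 for the ERK list, 0.911 to 1.15 for early neural, -0.387 to 0.0942 for naive, -0.591 to 0.144 for Wnt targets, -0.907 to -0.488 for mesoderm and endoderm regulators, -0.572 to -0.186 for EMT, -0.739 to -0.205 for trophoblast, 0.15 to 0.879 for fibroblast, -0.449 to 0.267 for blood and endothelium, -0.0318 to 0.109 for BMP and Id and 0.165 to 0.274 for ETS factors. The cause of these shifts was not tested.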

Other observations

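Genes of the Hedgehog pathway, a list chosen after values were seen, had 5 positive interactions of 17 tested (all genes 2.29%) and 0 negative, with a median of 0.55. Gli1, a transcriptional target and effector of the pathway, fell from 3.7, 4.98 and 5.89 CPM to 1.75, 1.43 and 1.67 CPM with RAS and read 3.87, 5.49 and 5.26 CPM in 2iL and 10.8, 13.7 and 11.9 CPM in FA without it (2.89 ± 0.48). Gli2 fell from 98.4, 105 and 113 CPM to 20.6, 17.8 and 20.6 CPM with RAS and from 106, 111 and 119 CPM to 68.8, 73.4 and 64.7 CPM without it (1.73 ± 0.12). The receptor gene Ptch1 read 74.2, 76.1 and 71.8 CPM with RAS and 144, 159 and 147 CPM without RAS in FA (1.23 ± 0.18), and Hhip and Evc were also positive. None of Gli1, Gli2, Ptch1 and Hhip had a called difference from the ERF wild type interaction, whereas Evc did (2.08).

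Further families were listed after values were seen. Of 14 tested alpha and beta tubulins 5 were positive (all genes 2.29%) and 1 negative (2.31%), and Tuba1a read 232, 202 and 192 CPM with RAS and 851, 850 and 669 CPM without RAS in FA (1.78 ± 0.19). Of 37 tested Hox genes 5 were negative (all genes 2.31%) and 0 positive, with 18 at the counting floor in at least 1 group. Hoxa5 read 8.6, 8.9 and 9.29 CPM with RAS and 2.74, 2.57 and 3.94 CPM without it in FA (-2.41 ± 0.54).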
